A study of Mus musculus with 9 samples.

Results

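Transcripts of the MYC, MAX and MXD network were followed in T15 cells, a murine peripheral T cell lymphoma (PTCL) line that lacks Smarcb1. The 10 genes were chosen by name from the 35288 listed in the count table: the MYC genes Myc, Mycn and Mycl, their partner Max, the MAX-binding repressors Mxd1, Mxi1, Mxd3 and Mxd4, and the larger MAX partners Mnt and Mga. All 10 passed the filter on low counts that left 13697 tested genes.

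RNA-seq covered 9 libraries in 3 groups of 3. T15 was established from a mouse model in which Cd4-cre deletes floxed Smarcb1 in T cells, so every library shares the loss of the endogenous gene and comes from a single cell line. SAHA cells received the histone deacetylase inhibitor SAHA (vorinostat) at 1 µM for 72 h. Smarcb1-RE cells carried a lentiviral, doxycycline-inducible Smarcb1 cDNA, were selected with G418, and received Dox at 0.5 µg/µl for 72 h. The study reports strong induction of apoptosis in T15 cells at this SAHA concentration. After Smarcb1 re-expression it reports slower growth, with unchanged viability and cell cycle. Whether dying cells or slower growth took part in the results was not tested. The study's text calls the control cells untreated, while its labels also name a vehicle and a control plasmid without assigning either to these libraries. A figure caption describes cells with an empty control vector and Dox, without tying them to the RNA-seq controls. Transduction, selection and Dox therefore cannot be told apart from Smarcb1 itself. The number of Smarcb1-RE clones behind the libraries was not given either.

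MYC proteins bind DNA only as dimers with MAX, at E-boxes whose core letters are CACGTG, and mostly activate genes for ribosome assembly, nucleotide synthesis and cell division. MXD proteins and MNT compete for MAX and the same sites, where they bring in the SIN3 corepressor with its histone deacetylases, the enzymes that SAHA inhibits. MGA binds MAX as the scaffold of a Polycomb complex, PRC1.6, that keeps germline genes silent. SMARCB1 is a core subunit of the SWI/SNF chromatin remodeler and is known to bind MYC and to restrain it.

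The E-box was searched in RefSeq promoter windows (GRCm38.p6), since it is the site at which the network acts. Each window reaches from 250 bases before to 50 bases after an annotated start. CACGTG is its own reverse complement, so a search of one strand covers both, and no other motif was searched. Of the 9 network genes with a window, Mxd4, Mnt and Max held the motif, whereas Mycn, Mycl, Mxd1, Mxd3, Mxi1 and Mga did not and Myc had no window in the table. Among all 27025 genes with a window, 8.09% held it. The windows of these 3 genes are printed 5′ to 3′ on the strand of the gene, with the E-box in capitals, and a match describes letters only, not binding. That of Mxd4 (chr5:34187661-34187960, minus strand) has the E-box 219 bases before the start, that of Mnt (chr11:74830674-74830973, plus strand) 123 bases before it, and that of Max (chr12:76962199-76962498, minus strand) 3 bases before it. The RefSeq start used for Max lies outside every GENCODE M21 transcript of the gene.
Mxd4: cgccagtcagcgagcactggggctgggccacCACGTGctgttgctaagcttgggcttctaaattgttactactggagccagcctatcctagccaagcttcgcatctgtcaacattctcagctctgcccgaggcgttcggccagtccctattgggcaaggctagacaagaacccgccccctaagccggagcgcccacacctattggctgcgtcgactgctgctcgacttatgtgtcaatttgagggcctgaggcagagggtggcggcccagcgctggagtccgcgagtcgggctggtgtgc
Mnt: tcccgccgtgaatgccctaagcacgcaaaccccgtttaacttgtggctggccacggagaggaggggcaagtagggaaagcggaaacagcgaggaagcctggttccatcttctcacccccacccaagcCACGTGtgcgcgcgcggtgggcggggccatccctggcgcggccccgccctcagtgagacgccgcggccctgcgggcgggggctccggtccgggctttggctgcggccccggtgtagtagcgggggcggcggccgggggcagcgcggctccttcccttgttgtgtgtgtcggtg
Max: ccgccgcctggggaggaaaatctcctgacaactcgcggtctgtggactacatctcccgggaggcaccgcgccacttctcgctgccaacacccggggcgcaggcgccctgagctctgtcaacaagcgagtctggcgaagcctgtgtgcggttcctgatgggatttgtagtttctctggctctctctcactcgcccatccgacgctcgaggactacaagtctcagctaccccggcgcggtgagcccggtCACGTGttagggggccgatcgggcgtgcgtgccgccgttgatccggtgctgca

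Smarcb1 itself had 2, 5 and 8 counts in control, 7, 13 and 3 with SAHA and 151, 147 and 142 with Smarcb1-RE. Library totals were between 20900424 and 24941408 counts, where 3 counts correspond to 0.123 to 0.133 CPM, a limit that covers counting error only. Levels are given as CPM, counts scaled to library size with TMM factors, and changes as log2 fold changes with their standard error (SE). A gene was called at an adjusted p under 0.05 in edgeR's quasi-likelihood test with Benjamini-Hochberg adjustment over all tested genes. Control replicate 1 stood apart from the other libraries of its group (chi-square per gene 13.4 and 15.0 against 2.12 to 4.69 for all other pairs of replicates). Calls on network genes that depend on it are named as such. Counts for some of the gene lists below also shifted without it. Of 12 T cell markers, 9 were tested, among them Cd3d, Cd3e, Cd3g and Lck at 228 CPM or more in every library, while Cd2, Cd5 and Thy1 were at or near 0. The sum of the 12 was 3142 to 3259 CPM in control, 3562 to 3609 with SAHA and 4201 to 4240 with Smarcb1-RE. Most of its rise came from Ptprc, which averaged 641 CPM in control, 1007 with SAHA and 1641 with Smarcb1-RE. The tested markers moved in both directions: 4 were called higher and 3 lower with SAHA, and 3 higher and 3 lower with Smarcb1-RE. Of all tested genes, 32.6% were called higher and 34.3% lower with SAHA, and 39.2% and 38.6% with Smarcb1-RE. The sum of 12 markers of other cells was 1.40 to 1.99 CPM in control, 2.78 to 3.27 with SAHA and 7.93 to 8.50 with Smarcb1-RE, where the B cell genes Ms4a1 and Pax5 made up most of it. Whether other cells took part in the results was not tested. In such bulk libraries, a change in the share of cells that express a gene and a change in its RNA per cell cannot be told apart.

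SAHA and Smarcb1 re-expression moved the network in different ways. With SAHA, 5 of the 10 transcripts rose (Myc, Mycl, Mxd1, Mxd4 and Mxi1), 1 fell (Mga) and 4 were not called, against a background of 32.6% of all tested genes called higher and 34.3% called lower. With Smarcb1-RE, 4 rose (Mxd1, Mxd4, Mnt and Mga), 5 fell (Myc, Mycn, Max, Mxd3 and Mxi1, the last of which changed sign with library totals as the only scaling) and Mycl was not called, against 39.2% of all genes called higher and 38.6% called lower. Without control replicate 1, 5 rose and 1 fell with SAHA, and 3 rose and 5 fell with Smarcb1-RE. Compared directly, all 10 differed between the treatments. Mxd1, Mxd4, Mnt and Mga were higher in Smarcb1-RE than in SAHA and the other 6 were lower. In that comparison 37.7% of all genes were called higher and 36.8% lower.

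Most changes against control were small. A log2 fold change of at least 1 in either direction was reached by Mycl with SAHA (background 12.2%), by Mxd4 with Smarcb1-RE (23.6%) and by both genes in the direct comparison (19.8%). The median absolute log2 fold change of the 10 genes was 0.20 with SAHA and 0.39 with Smarcb1-RE, beside 0.37 and 0.53 over all tested genes. Between the treatments it was 0.61, beside 0.48 over all tested genes. SAHA and Smarcb1-RE were each compared with the same 3 control libraries.

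**Figure D1:**
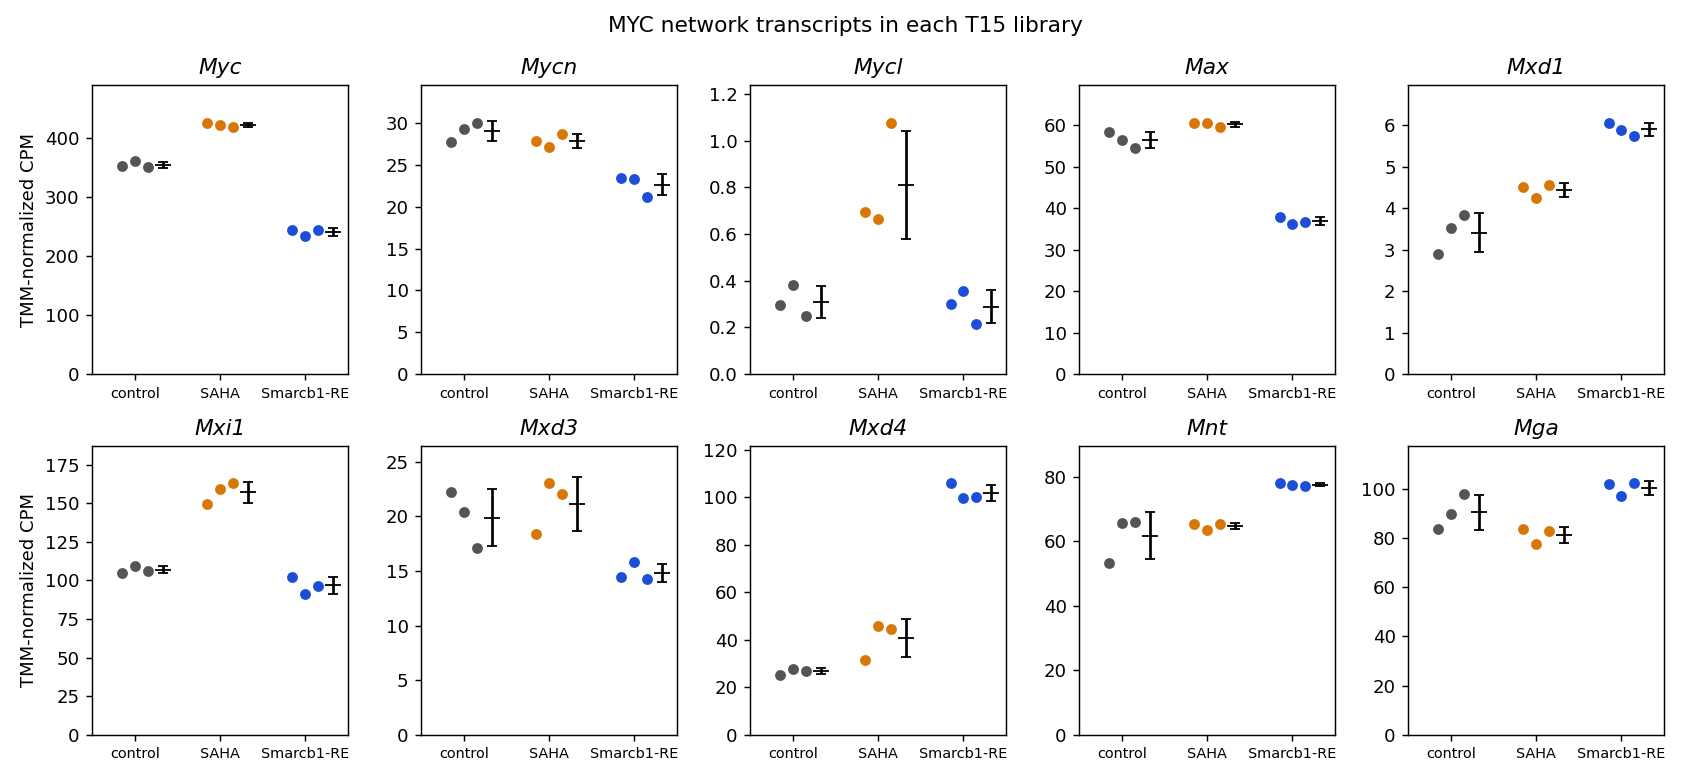
TMM-normalized CPM of the 10 network transcripts in each of the 9 T15 libraries, with 1 panel per gene and each vertical axis starting at 0. Points are libraries and the black marks beside them are the mean and SD of 3 libraries; Myc lies above control in all SAHA libraries and below it in all Smarcb1-RE libraries, and Mxd4 is highest in Smarcb1-RE.

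Myc (ENSMUSG00000022346, chromosome 15 from 61985391 to 61990374, plus strand, GRCm38), the main MYC gene of these cells, moved in opposite directions under the treatments. It was at 352, 361 and 351 CPM in control, at 426, 422 and 418 with SAHA and at 244, 233 and 245 with Smarcb1-RE. No library of any group overlapped another group. The mean was 355 ± 5.26 (SD, n = 3) in control, 422 ± 3.74 with SAHA and 241 ± 6.47 with Smarcb1-RE. SAHA raised Myc by 0.25 on the log2 scale (SE 0.04, edgeR adjusted p = 4.64e-05), a 1.19-fold difference. In Smarcb1-RE it fell by 0.56 (SE 0.04, edgeR adjusted p = 1.91e-08), and its log2 fold change against SAHA was -0.81 (SE 0.04, edgeR adjusted p = 7.60e-10). These values changed little when any 1 library was left out, staying between 0.24 and 0.26 for SAHA and between -0.58 and -0.54 for Smarcb1-RE.

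Mycn (ENSMUSG00000037169, chromosome 12 from 12936093 to 12941914, minus strand), the paralog best known from the developing nervous system, was at 27.8, 29.3 and 30.1 CPM in control, 27.8, 27.1 and 28.7 with SAHA and 23.4, 23.3 and 21.2 with Smarcb1-RE. All Smarcb1-RE libraries lay below the others. It fell by 0.36 with Smarcb1-RE (SE 0.06, edgeR adjusted p = 7.57e-05). For SAHA the log2 fold change was -0.06 with a 95% interval from -0.18 to 0.06, and the libraries overlapped.

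Mycl (ENSMUSG00000028654, chromosome 4 from 122995652 to 123002485, plus strand), the third MYC gene, was low, with 7, 9 and 6 counts in control, 16, 15 and 25 with SAHA and 7, 8 and 5 with Smarcb1-RE. The SAHA libraries lay above all others. The rise with SAHA was 1.38 on the log2 scale (SE 0.34, edgeR adjusted p = 0.0033), from a mean of 7.33 to 18.7 counts. With Smarcb1-RE the interval of the log2 fold change ran from -0.97 to 0.79, so that a difference of either sign was not detectable at this depth.

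Max (ENSMUSG00000059436, chromosome 12 from 76937269 to 76962201, minus strand), the partner that the other members share, was at 58.3, 56.4 and 54.6 CPM in control, 60.5, 60.6 and 59.6 with SAHA and 38.0, 36.1 and 36.8 with Smarcb1-RE. It fell by 0.61 with Smarcb1-RE (SE 0.04, edgeR adjusted p = 3.77e-08), a 1.53-fold lower level. The fall of Myc in the same comparison was 1.47-fold. With SAHA the log2 fold change of Max was 0.09 (SE 0.04, edgeR adjusted p = 0.0618). The 3 SAHA libraries lay above the controls, and without control replicate 1 the value was 0.12 with an adjusted p of 0.0155 in edgeR.

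Mxd4 (ENSMUSG00000037235, chromosome 5 from 34173883 to 34187720, minus strand), a MAX-binding repressor expressed in cells that leave the cell cycle, changed most with Smarcb1-RE. It was at 25.3, 27.9 and 27.1 CPM in control, 31.4, 46.0 and 44.8 with SAHA and 106, 99.9 and 100.1 with Smarcb1-RE. The 3 groups did not overlap, and SAHA replicate 1 was the lowest of its group. With Smarcb1-RE, Mxd4 rose by 1.93 on the log2 scale (SE 0.11, edgeR adjusted p = 4.40e-09), 3.81-fold. SAHA raised it by 0.60 (SE 0.11, edgeR adjusted p = 0.000414), and the difference between the treatments was 1.32 (SE 0.10, edgeR adjusted p = 1.14e-07).

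Mxd1 (ENSMUSG00000001156, chromosome 6 from 86647042 to 86669161, minus strand), the founding member of the MXD family, had the lowest level per kb of exon among the repressors and was at 2.89, 3.51 and 3.82 CPM in control, 4.50, 4.24 and 4.57 with SAHA and 6.06, 5.89 and 5.73 with Smarcb1-RE. The 3 groups formed separate steps. The log2 fold change was 0.79 with Smarcb1-RE (SE 0.13, edgeR adjusted p = 8.65e-05) and 0.38 with SAHA (SE 0.13, edgeR adjusted p = 0.0205). The call for SAHA was lost without control replicate 1 (0.27, adjusted p = 0.0676 in edgeR), without SAHA replicate 3 (0.36, adjusted p = 0.0533 in edgeR), without the filter on low counts (adjusted p = 0.0510 in edgeR) and in DESeq2 (adjusted p = 0.0573).

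Mxi1 (ENSMUSG00000025025, chromosome 19 from 53310518 to 53375810, plus strand), also called Mxd2, had the highest level per kb of exon of the 4 Mxd genes in control cells. Its levels were 105, 109 and 106 CPM in control, 149, 159 and 163 with SAHA and 102, 91.5 and 96.5 with Smarcb1-RE. SAHA raised it by 0.56 on the log2 scale (SE 0.05, edgeR adjusted p = 6.31e-07), with all 3 libraries above control. With Smarcb1-RE it was slightly lower (log2 fold change -0.14, SE 0.05, edgeR adjusted p = 0.0178), but this call was lost without Smarcb1-RE replicate 2 (-0.11, edgeR adjusted p = 0.087), and with library totals as the only scaling the value turned to 0.01 (edgeR adjusted p = 0.789). The difference between Smarcb1-RE and SAHA was larger, at -0.70 (SE 0.05, edgeR adjusted p = 4.05e-08).

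Mxd3 (ENSMUSG00000021485, chromosome 13 from 55325168 to 55329823, minus strand) is the MXD gene that is expressed in dividing cells. It was at 22.2, 20.4 and 17.1 CPM in control, 18.4, 23.0 and 22.1 with SAHA and 14.5, 15.8 and 14.3 with Smarcb1-RE. Control and SAHA overlapped, and Smarcb1-RE lay below both. It fell by 0.42 with Smarcb1-RE (SE 0.11, edgeR adjusted p = 0.00267). For SAHA the interval ran from -0.13 to 0.31 around 0.09. Mxd3 overlaps Prelid1, which lies on the opposite strand and averaged 137 CPM, and whether strand was used in counting is not given, so the level of Mxd3 is uncertain.

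Mnt (ENSMUSG00000000282, chromosome 11 from 74830920 to 74845725, plus strand), a widely expressed antagonist of MYC, was at 53.3, 65.6 and 66.1 CPM in control, 65.3, 63.6 and 65.2 with SAHA and 77.9, 77.6 and 77.2 with Smarcb1-RE. Control replicate 1 was low, and every Smarcb1-RE library was above every other library. The log2 fold change was 0.33 with Smarcb1-RE (SE 0.07, edgeR adjusted p = 0.000593) and 0.23 without control replicate 1. With SAHA it was 0.07, with an interval from -0.08 to 0.22.

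Mga (ENSMUSG00000033943, chromosome 2 from 119897228 to 119969581, plus strand) was at 83.7, 89.7 and 97.8 CPM in control, 83.6, 77.5 and 82.7 with SAHA and 102, 97.1 and 102 with Smarcb1-RE. It was called lower with SAHA (log2 fold change -0.15, SE 0.06, edgeR adjusted p = 0.0279) and higher with Smarcb1-RE (0.15, SE 0.06, edgeR adjusted p = 0.0253), where the libraries overlapped with control. The call for SAHA was lost without control replicate 2, control replicate 3 or SAHA replicate 2, and that for Smarcb1-RE in 6 of the 9 fits that left out 1 library. The difference between the treatments was 0.31 (SE 0.06, edgeR adjusted p = 0.000291), with no overlap.

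**Figure D2:**
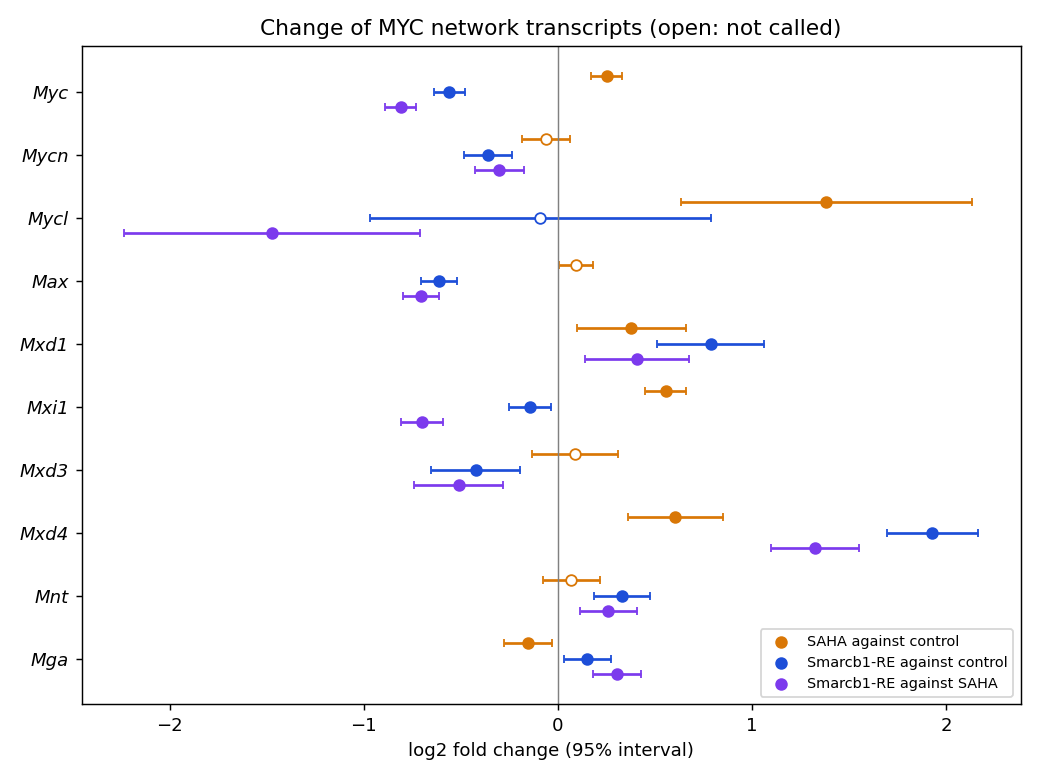
Log2 fold change of each network transcript in the 3 comparisons, with 95% intervals as horizontal bars; filled points passed an adjusted p under 0.05 and open points did not. Mxd4 in Smarcb1-RE (1.93) and Mycl in SAHA (1.38) lie farthest from 0 in the comparisons with control, and the interval of Mycl is the widest.

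To compare levels between genes, CPM was divided by the length of the union of each gene's exons in kb. Myc led in every group, at 131 CPM per kb in control, 155 with SAHA and 88.6 with Smarcb1-RE, and supplied 93.6%, 94.7% and 92.7% of the summed level of the 3 MYC genes. In control, Max (15.7) and Mxi1 (15.7) followed and overlapped, then came Mnt (13.3), Mycn (8.82) and Mxd3 (8.40), which overlapped, Mga (5.89), Mxd4 (3.15), Mxd1 (0.48) and Mycl (0.08). SAHA placed Mxi1 (23.0) above Max (16.7) and Mxd4 (4.80) and Mga (5.30) overlapped in that group. In Smarcb1-RE, Mnt (16.8), Mxi1 (14.2) and Mxd4 (12.0) all stood above Max (10.3), with no overlap between neighbours among these 4. Mycn (6.87), Mga (6.55) and Mxd3 (6.27) overlapped one another in that group, and Mxd1 (0.83) and Mycl (0.07) came last.

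The order depended on the gene length used. When the longest annotated transcript replaced the union of exons, a choice made after seeing the data, Max in control was at 29.1 CPM per kb and Mxi1 at 21.2, and in Smarcb1-RE Mxd4 was at 22.0, above Mxi1 (19.2), Max (19.0) and Mnt (16.9). Myc led and Mxd1 and Mycl came last with either length.

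The summed level of Mxd1, Mxi1, Mxd3, Mxd4 and Mnt was then set beside that of Myc, Mycn and Mycl. The MYC sum was 139 ± 2.03 CPM per kb (SD, n = 3) in control, 164 ± 1.22 with SAHA and 95.6 ± 2.20 with Smarcb1-RE. The MXD and MNT sum was 41.0 ± 1.49 in control, 51.4 ± 2.84 with SAHA and 50.1 ± 1.04 with Smarcb1-RE. Both sums were thus higher with SAHA, whereas with Smarcb1-RE the first was lower and the second higher than in control.

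The ratio of the MXD and MNT sum to the MYC sum was 0.287, 0.301 and 0.295 in control, 0.291, 0.322 and 0.327 with SAHA and 0.528, 0.531 and 0.512 with Smarcb1-RE. SAHA overlapped with control, and Smarcb1-RE lay above both. With the longest transcript as length, the group means were 0.323, 0.351 and 0.609. Relative to Max, the MYC sum was 8.89 ± 0.33 (SD, n = 3) in control, 9.80 ± 0.07 with SAHA and 9.31 ± 0.13 with Smarcb1-RE, while the MXD and MNT sum was 2.62 ± 0.15, 3.07 ± 0.18 and 4.88 ± 0.05. Within the MXD and MNT sum, the share of Mxd4 was 7.69% in control, 9.29% with SAHA and 24.0% with Smarcb1-RE, and that of Mxi1 was 38.2%, 44.8% and 28.3%. These ratios describe transcripts, not proteins or dimers, and were not tested.

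**Figure D3:**
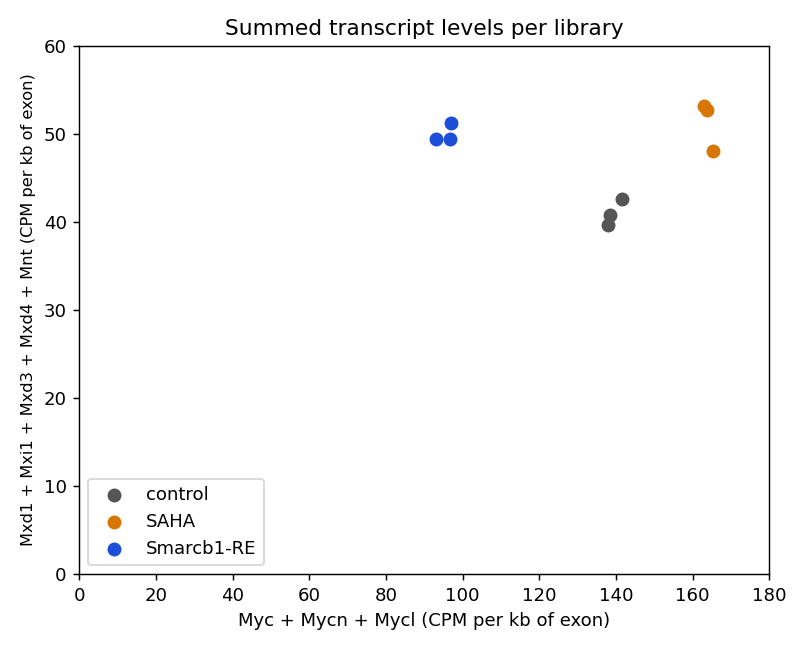
Summed level of Mxd1, Mxi1, Mxd3, Mxd4 and Mnt against the summed level of Myc, Mycn and Mycl, both in CPM per kb of exon, with 1 point per library and both axes starting at 0. SAHA libraries lie above and to the right of control, and Smarcb1-RE libraries lie above and to the left, at a MYC sum of 93.0 to 97.0.

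Among 11318 tested genes whose log2 CPM averaged 1 or more, the 5 whose log2 CPM over the 9 libraries was most like that of Myc were Ttc9b (Pearson's r 0.9993), Cavin1 (0.9991), Gm12854 (0.9984), Gmppb (0.9981) and Echdc1 (0.9976). The libraries form 3 groups, so r mostly describes the group means, and the measure takes no account of size. Cavin1, a coat protein of caveolae, was at 823 ± 34.1 CPM (SD, n = 3) in control, 1532 ± 39.9 with SAHA and 213 ± 21.4 with Smarcb1-RE, a wider range than that of Myc. Gmppb, an enzyme of GDP-mannose synthesis, was at 56.9 ± 1.18, 81.2 ± 1.92 and 25.2 ± 1.78 CPM in the same order.

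Genes that MYC is known to activate were mostly lower in both treatments, including SAHA, where Myc itself was higher. Of 70 such genes, all tested, 51 fell and 4 rose with SAHA, where 34.3% of all tested genes were called lower and 32.6% higher. With Smarcb1-RE, 64 fell and 3 rose, against 38.6% and 39.2% of all tested genes. The median log2 fold change was -0.36 with SAHA and -0.91 with Smarcb1-RE, beside 0.00 and 0.01 over all tested genes. With Smarcb1-RE, 31 of them fell by at least 1 on the log2 scale, and with SAHA 1 did. In the direct comparison 56 were lower and 6 higher in Smarcb1-RE (median -0.57), against 36.8% and 37.7% of all tested genes. Without control replicate 1 the counts of genes that fell were 51 with SAHA and 64 with Smarcb1-RE.

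Odc1, the rate-limiting enzyme of polyamine synthesis and a classical MYC target, was at 1947, 1907 and 1835 CPM in control, 1321, 1253 and 1294 with SAHA and 570, 545 and 558 with Smarcb1-RE. The 3 groups formed descending steps, with log2 fold changes of -0.56 for SAHA (SE 0.04, edgeR adjusted p = 1.01e-07) and -1.77 for Smarcb1-RE (SE 0.04, edgeR adjusted p = 3.55e-12). Cad, which starts pyrimidine synthesis, was at 381, 422 and 433 CPM in control, 227, 209.5 and 214 with SAHA and 164, 184 and 174 with Smarcb1-RE, again in descending steps. Plk1, a mitotic kinase, fell by 1.76 with Smarcb1-RE, and Slc19a1, the reduced folate carrier, fell by 1.47 with SAHA.

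Some activated genes departed from this order. Tfrc, the transferrin receptor, was at 797, 843 and 845 CPM in control, 1099, 1039 and 1052 with SAHA and 331, 288 and 302 with Smarcb1-RE. It thus followed the order of Myc itself, with a log2 fold change of 0.36 for SAHA (SE 0.05, edgeR adjusted p = 4.41e-05) and -1.43 for Smarcb1-RE (SE 0.05, edgeR adjusted p = 1.33e-10). Shmt2, the mitochondrial serine hydroxymethyltransferase, was at 386, 388 and 378 CPM in control, 245, 219 and 223 with SAHA and 422, 438 and 425 with Smarcb1-RE. It was lower with SAHA and slightly higher with Smarcb1-RE (0.16, SE 0.04, edgeR adjusted p = 0.00641). Sord, sorbitol dehydrogenase, rose in both, by 0.94 and 0.67.

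E-boxes were more frequent in the promoter windows of this list than over all genes (8.09%), a set that also holds untested genes. In the list, 19 of the 63 genes with a window held CACGTG (30.2%). With Smarcb1-RE the median log2 fold change was -1.03 for the 19 and -0.88 for the 44 without it, and with SAHA -0.30 and -0.39.

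Genes that MYC is known to repress were mostly higher in both treatments. Of 11, 9 were tested, as Gas1 and Clu were near 0. All 9 rose with SAHA (median log2 fold change 1.23), and with Smarcb1-RE 8 rose and Gadd45b fell (median 1.22). Over all tested genes, 32.6% rose with SAHA (median 0.00) and 39.2% with Smarcb1-RE (median 0.01). Ndrg1, a growth-linked gene whose repression by MYC and MYCN is well known, was at 5.87, 7.61 and 5.80 CPM in control, 30.7, 44.2 and 42.7 with SAHA and 27.4, 15.1 and 19.8 with Smarcb1-RE. The treated libraries lay above control, and their ranges did not overlap with each other. Its log2 fold changes were 2.61 (SE 0.21, edgeR adjusted p = 3.02e-07) and 1.69 (SE 0.22, edgeR adjusted p = 1.28e-05).

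That list also holds 4 genes of CDK inhibitors, which block cell cycle kinases. Cdkn1a was at 1.96, 2.83 and 2.67 CPM in control, 4.25, 3.80 and 3.70 with SAHA and 7.85, 8.32 and 7.63 with Smarcb1-RE, and Cdkn1c at 2.34, 2.37 and 1.81, 4.81, 5.39 and 5.34, and 9.13, 11.0 and 10.7 in the same order. Both were highest in Smarcb1-RE, with log2 differences from SAHA of 1.02 and 0.99. Cdkn1b and Cdkn2b, named after their values were seen, had their highest means with SAHA: Cdkn1b was at 92.8 ± 2.81 CPM (SD, n = 3) in control, 148 ± 1.07 with SAHA and 114 ± 5.01 with Smarcb1-RE, and Cdkn2b at 1.61 ± 0.23, 3.78 ± 1.35 and 2.64 ± 0.19, where the SAHA and Smarcb1-RE libraries overlapped. Gadd45b, a stress-response gene, rose by 0.94 with SAHA and fell by 0.40 with Smarcb1-RE (SE 0.06, edgeR adjusted p = 4.24e-05). It was the only gene with an E-box among the 8 of the list that had a window (12.5%, beside 8.09% of all genes).

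**Figure D4:**
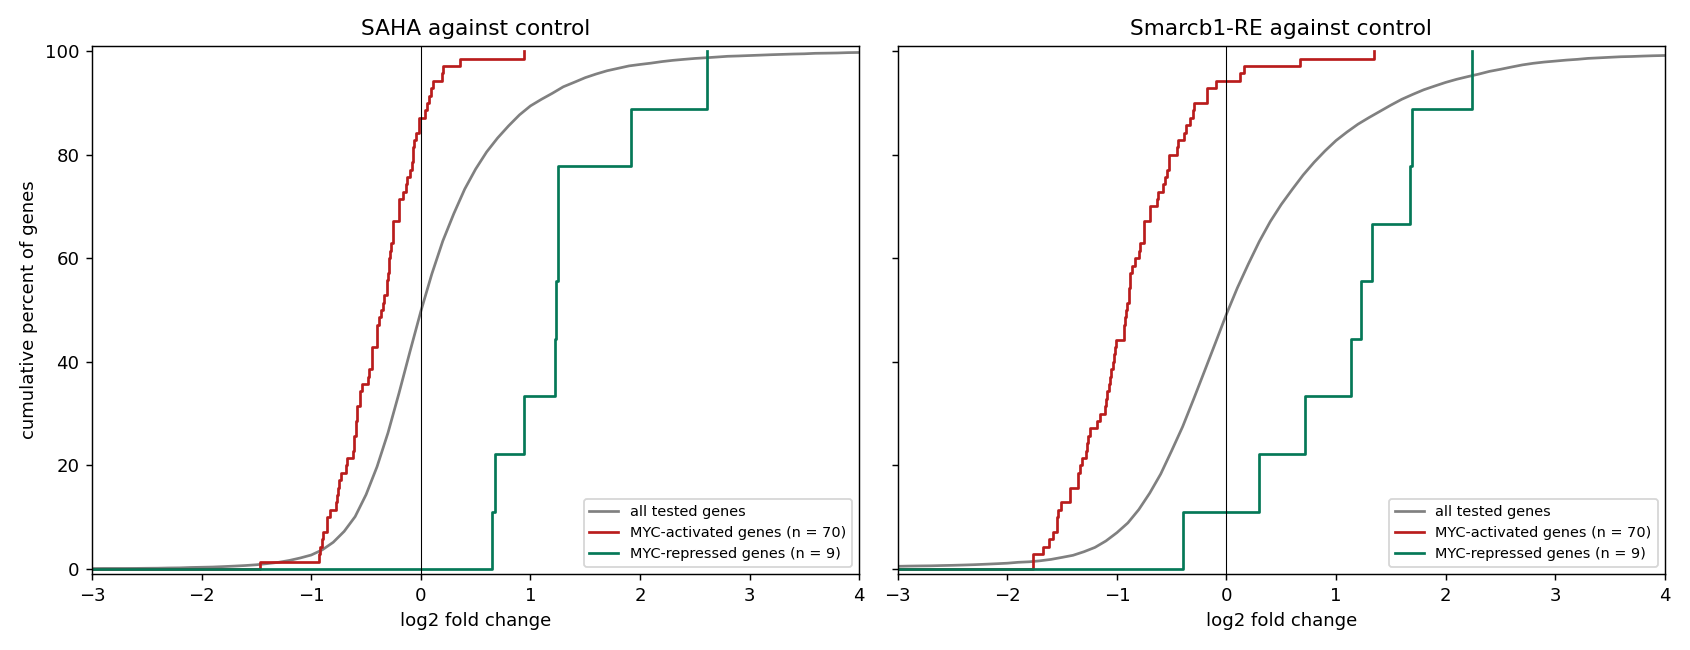
Cumulative percent of genes at or below each log2 fold change, for SAHA on the left and Smarcb1-RE on the right, with all tested genes in grey, the 70 MYC-activated genes in red and the 9 tested MYC-repressed genes in green. The red line lies left of the grey line over most of its length in both panels, farther so for Smarcb1-RE (median -0.91) than for SAHA (median -0.36), and the green line lies to the right.

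A parallel arm of the network is formed by MLX, which pairs with some MXD proteins and MNT and with the glucose sensors MondoA (Mlxip) and ChREBP (Mlxipl). Its 5 listed genes were all tested: 3 rose and 1 fell with SAHA (background 32.6% and 34.3%), and 4 rose and 1 fell with Smarcb1-RE (39.2% and 38.6%). The median was 0.34 with SAHA and 2.15 with Smarcb1-RE. The 2 targets on the list, which encode arrestin-like proteins that limit glucose uptake, rose most with Smarcb1-RE. Txnip was at 14.6, 16.3 and 14.9 CPM in control, 19.4, 27.6 and 25.8 with SAHA and 89.4, 94.1 and 93.9 with Smarcb1-RE, a log2 fold change of 2.60 in the last (SE 0.10, edgeR adjusted p = 1.52e-10). Arrdc4 was at 0.30, 0.38 and 0.25 CPM in control, 0.43, 0.35 and 0.39 with SAHA and 6.74, 6.46 and 6.47 with Smarcb1-RE, with a log2 fold change of 4.39 (SE 0.20, edgeR adjusted p = 8.66e-10).

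Mlxipl followed another order, at 0.38, 0.72 and 0.25 CPM in control, 6.45, 9.10 and 9.39 with SAHA and 2.26, 2.30 and 1.47 with Smarcb1-RE. It rose by 4.20 with SAHA (SE 0.30, edgeR adjusted p = 1.11e-07) and its log2 fold change in Smarcb1-RE against SAHA was -2.05. Mlx, the common partner, fell by 0.23 with SAHA and by 0.53 with Smarcb1-RE. Mlx, Mlxipl and Arrdc4 held an E-box in their windows.

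Corepressor genes of the SIN3 and NCOR complexes, which MXD proteins and MNT recruit, moved in both directions. Of 12, all tested, 4 rose and 5 fell with SAHA, near the 32.6% and 34.3% of all tested genes. The number that fell depended on the fit. It was 2 to 4 when any 1 library was left out, with 3 without control replicate 1. DESeq2 gave 3 and separate fits to 2 groups gave 2. With Smarcb1-RE 3 rose and 7 fell, against 39.2% and 38.6%. Sap30, a subunit of SIN3, rose by 0.61 with SAHA (edgeR adjusted p = 5.38e-07) and fell by 1.12 with Smarcb1-RE (edgeR adjusted p = 2.37e-09). Sap18 fell in both, by 0.30 and 1.09, and Arid4b, a SIN3-associated chromatin protein, rose in both, by 0.89 and 0.32. Sin3b, one of the scaffolds, fell by 0.33 with SAHA. The median of the list was 0.05 with SAHA, -0.25 with Smarcb1-RE and -0.43 in the direct comparison, where 9 were lower in Smarcb1-RE and 1 higher, against 36.8% and 37.7% of all tested genes.

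Among 14 cofactors of MYC, all tested, 2 rose and 7 fell with SAHA and 3 rose and 10 fell with Smarcb1-RE (medians -0.12 and -0.36). Without control replicate 1, 9 of them fell with SAHA. The background was 32.6% higher and 34.3% lower with SAHA, and 39.2% and 38.6% with Smarcb1-RE, with medians of 0.00 and 0.01. The ATPase genes Ruvbl1 and Ruvbl2, whose products act in the TIP60 and INO80 complexes, were prominent: Ruvbl1 fell by 1.10 and 1.43, and Ruvbl2 by 1.25 with Smarcb1-RE. The acetyltransferase gene Kat2a fell by 0.92 with SAHA. Paf1, an elongation factor, rose by 0.70 with SAHA and was 1.35 lower on the log2 scale in Smarcb1-RE than in SAHA. Trrap, a scaffold that binds MYC directly, rose by 0.25 with Smarcb1-RE (SE 0.07, edgeR adjusted p = 0.0045).

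A further 17 genes that set the stability of MYC protein were also listed, of which 4 rose and 11 fell with SAHA (median -0.22) and 5 rose and 11 fell with Smarcb1-RE (median -0.43). All tested genes were called higher in 32.6% and lower in 34.3% with SAHA, and in 39.2% and 38.6% with Smarcb1-RE. Pim1, a kinase that stabilizes MYC, rose by 1.20 and 1.16, and Aurka, the mitotic kinase that protects MYCN from degradation, fell by 0.72 and 1.54. Fbxo32, a ubiquitin ligase subunit also known as atrogin-1, was at 10.9, 12.2 and 14.6 CPM in control, 11.5, 13.4 and 12.2 with SAHA and 52.4, 47.8 and 49.5 with Smarcb1-RE, a log2 fold change of 1.99 in the last (SE 0.09, edgeR adjusted p = 5.94e-10). Cip2a, an inhibitor of the phosphatase that destabilizes MYC, was at 155, 145 and 147 CPM in control, 153, 150 and 149 with SAHA and 66.9, 59.3 and 60.5 with Smarcb1-RE. Both genes overlapped with control in SAHA and stood apart in Smarcb1-RE. Fbxw7, the ligase subunit that marks phosphorylated MYC for degradation, was 1.18 lower on the log2 scale in Smarcb1-RE than in SAHA. MYC protein was not measured in these libraries.

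Of 9 partners of MGA in PRC1.6, 2 rose and 5 fell with SAHA (median -0.27) and 1 rose and 6 fell with Smarcb1-RE (median -0.20). Among all tested genes the shares were again 32.6% and 34.3% with SAHA and 39.2% and 38.6% with Smarcb1-RE. L3mbtl2, a subunit specific to this complex, fell by 1.14 with Smarcb1-RE (SE 0.04, edgeR adjusted p = 3.77e-11), and E2f6, its E2F-type DNA-binding subunit, by 0.86 with SAHA (SE 0.07, edgeR adjusted p = 2.12e-07). Ring1 rose with Smarcb1-RE by 0.39 and Rnf2 rose with SAHA by 0.52, both genes encoding the complex's ubiquitin ligases. Cbx3 is also among the MYC-activated genes.

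The germline genes that this complex keeps silent stayed mostly at the detection limit. Of 15, 9 had at most 3 counts in every library and 3 were tested, and 9 of the 15 (60%) held an E-box in their promoter windows. Zcwpw1, a histone reader of meiotic cells, was not silent in control cells and held no E-box in its window. It was at 44.0, 37.6 and 37.6 CPM in control, 35.9, 38.2 and 37.4 with SAHA and 71.2, 72.5 and 71.2 with Smarcb1-RE, a rise of 0.85 on the log2 scale (SE 0.06, edgeR adjusted p = 2.76e-08). The other tested genes were Ddx4 and Dazl, RNA regulators of germ cells, which are named after their values were seen. Ddx4 had 8, 7 and 10 counts in control, 23, 39 and 25 with SAHA and 20, 23 and 26 with Smarcb1-RE, and was called higher in both. Dazl had 7, 1 and 2 counts in control, 32, 28 and 34 with SAHA and 3, 1 and 1 with Smarcb1-RE, and was called higher with SAHA (edgeR adjusted p = 4.29e-05). Sycp1, also named after its values were seen, did not pass the filter on low counts. It had 0, 1 and 0 counts in control, 5, 10 and 5 with SAHA and 1, 0 and 1 with Smarcb1-RE.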

How the data were processed

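RNA-seq was analysed in 3 control, 3 SAHA and 3 Smarcb1-RE libraries of T15 cells, made with a directional kit and sequenced single-end. The authors deposited 1 table of estimated counts per Ensembl gene, neither normalized nor pooled; the submitters' processing notes list Salmon 0.14.1, FastQC 0.11.8, MultiQC 1.7, DESeq2 1.22.2 and GRCm38. Salmon divides reads between similar sequences by estimation, so genes with close copies are uncertain, and the use of strand is not given. Of the 35288 identifiers, 99.5% were found in GENCODE M21 (GRCm38), the source of symbols, coordinates and exon lengths.

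Counts were rounded, since 52.4% of values above 0 were not whole. Tests used edgeR 4.0.16 under R 4.3.3: TMM factors, filterByExpr (min.count 10), then glmQLFit and glmQLFTest in 1 fit to all 9 libraries, with Benjamini-Hochberg adjustment over 13697 genes. The common biological coefficient of variation was 5.24%. SE is the absolute log2 fold change over the square root of F. Depth limits Mycl, at 5 to 25 counts. Replicates are biological per the study, but all come from 1 cell line, so p-values measure the spread between its cultures. The calculations were tested on simulated counts.

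The 10 genes and all gene lists, compiled from general knowledge, were chosen with earlier results of these data known. Named genes were the 10 members and Smarcb1, from each list and comparison at most the 2 largest and 2 smallest log2 fold changes among called genes whose log2 CPM averaged 1 or more, and the 5 genes most like Myc. Gene lists were described by counts and medians, without a set test.

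Alternatives were DESeq2 1.42.0, RLE factors, library totals only, no filter, separate fits to 2 groups, the replicate number as a block, a required log2 change of 1 in size, leaving out each library and, added after seeing the data, another gene length. Replicate numbers did not pair the libraries. Figures were drawn with matplotlib 3.10.9 in Python 3.11.15.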

Additional observations from a re-analysis of the deposited data

How the results depend on the processing

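Leaving aside a minimum size of change, the log2 fold changes of the 10 network genes gave 449 values under the alternatives: 423 kept their direction and side of the threshold, 17 lost their call, 3 gained one and 6 changed sign. The cause of these changes was not tested. The values that changed sign were small: Mxd3 in SAHA was -0.011 without control replicate 3 (range over the libraries left out -0.011 to 0.18), Mnt in SAHA -0.027 without control replicate 1 (-0.027 to 0.12), Mycl in Smarcb1-RE 0.067 with library totals only, 0.072 without control replicate 2 and 0.079 without Smarcb1-RE replicate 3 (-0.26 to 0.079), and Mxi1 in Smarcb1-RE 0.015 with library totals only. Those totals raised the median of all genes to 0.17 for Smarcb1-RE against control and 0.18 against SAHA, relative to which Mxi1 was at -0.16 and Mycl at -0.11, and turned the calls from 5371 higher and 5282 lower into 6476 and 4141 against control and from 5170 and 5042 into 6441 and 3924 against SAHA. They also gave 11 MYC-activated genes higher in Smarcb1-RE than in SAHA. Max in SAHA passed with RLE factors (adjusted p = 0.0446 in edgeR), with library totals (0.0496) and without control replicate 1 (0.0155).

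Mga in SAHA lost its call in separate fits, which left 0 network genes lower, and without control replicate 2 (-0.16), control replicate 3 (-0.09) or SAHA replicate 2 (-0.12), so that the count of network genes called lower ranged from 0 to 1. In Smarcb1-RE its call was lost without the filter (0.12), in separate fits (0.14) and without control replicate 1 (0.09), control replicate 2 (0.13), SAHA replicate 1 (0.13), SAHA replicate 2 (0.13), Smarcb1-RE replicate 1 (0.13) or Smarcb1-RE replicate 3 (0.14). Without the filter, 1 MYC-repressed gene was lower in SAHA and 2 in Smarcb1-RE.

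With a log2 fold change of at least 1 required, 1349 genes were higher and 322 lower in SAHA, 2309 and 928 in Smarcb1-RE and 1582 and 1124 between the treatments. Of the network genes 1 and 0, 1 and 0, and 1 and 1 remained, of the MYC-activated genes 0 and 1, 1 and 31, and 1 and 13. MYC-repressed genes lower in Smarcb1-RE than in control were then 0, and between the treatments 1 was higher and 1 lower.

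The replicate numbers did not mark shared libraries: deviations from the group means correlated between -0.07 and 0.04 for the 9 pairs with the same number, and between -0.04 and 0.05 for 18 pairs with different numbers. The fit with the replicate block called 5 network genes higher and 1 lower in SAHA and 4 and 5 in Smarcb1-RE, changed none of the 30 calls on network genes, and gave 4366 and 4664 genes in SAHA and 5335 and 5253 in Smarcb1-RE.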

Other observations

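The rise of Mxd4 in Smarcb1-RE was set beside its neighbours on chromosome 5, which are named after their values were seen. Of the 6 tested genes within 200 kb, 3 were called higher and 2 lower in Smarcb1-RE, with log2 fold changes from -0.46 to 0.78, all smaller than the 1.93 of Mxd4. Of all tested genes, 39.2% were called higher and 38.6% lower in that comparison. Zfyve28, the next tested gene upstream on the same strand, was at 0.78 in Smarcb1-RE and 1.52 in SAHA, the reverse of the order of Mxd4. Poln was at 0.62 and -1.29, and Haus3, which overlaps Poln, at -0.33 and -0.31.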
